A study of Homo sapiens with 6 samples.

Results

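The MAGE genes and the other cancer-testis antigen families (GAGE, PAGE, XAGE, SSX and CTAG) were followed through p16-transfected and mock-transfected Capan-1 cells. Members were taken by the start of their annotated symbol, which gave 70 of the 21357 genes named on the array, measured by 76 probe sets. Of the 70, 59 lie on chromosome X. By its letters the rule also took in SSX2IP, which encodes a protein that binds SSX2 and is no SSX gene, and the CTAGE genes, which are unrelated in sequence to CTAG1 and CTAG2. The families were picked because MAGEA12 and MAGEA6 stood among the largest rises of this same comparison, so the levels of members are given as a description, without p-values.

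Capan-1 is an established human pancreatic carcinoma cell line. The 3 p16 samples came from cells carrying a full-length human p16INK4a cDNA in the vector pRC/CMV, driven by the cytomegalovirus promoter, and the 3 mock samples from cells given a mock transfection. Each group has samples named V1, V2 and V3. The protocol, the same on all 6 samples, gives medium with 15% serum, selection in G418 at 1 mg/ml with hygromycin at 0.1 mg/ml, and 300 ng of total RNA per labelling, and names neither clones nor pools. RNA was hybridised to Affymetrix HG-U133 Plus 2.0 arrays, and values are log2 levels. Nothing in the labels says that samples of a group were separate cultures. The p-values therefore reflect the spread of these samples alone, possibly a technical one, and the number of arrays limits the precision.

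MAGE proteins share a MAGE homology domain. Type I genes (MAGEA, MAGEB and MAGEC) are X-linked and in normal tissue are active mainly in testis and kept silent elsewhere by DNA methylation, while type II genes (MAGED, MAGEE, MAGEF, MAGEH and MAGEL) are used in many tissues. Many MAGE proteins bind RING ubiquitin ligases and steer them to targets. GAGE, PAGE, XAGE, SSX and CTAG genes are likewise X-linked. Most, but not all, are germ cell restricted in normal tissue. They are switched on in a share of tumours, where their peptides can be seen by T cells.

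The groups differed broadly. Across probe sets, samples of the same group correlated at 0.927 to 0.991 and samples of different groups at 0.716 to 0.781, and 42.0% of the 11658 genes tested were called by limma at an adjusted p under 0.05, 19.5% higher and 22.5% lower in p16 samples. CDKN2A, the transfected gene, averaged 12.60 ± 0.45 in p16 and 6.01 ± 0.41 in mock samples (SD, n = 3 each). MTAP, a separate gene beside CDKN2A on chromosome 9, averaged 11.05 ± 0.29 in p16 and 2.07 ± 0.01 in mock samples (SD, n = 3 each). Of 15 pancreatic and epithelial carcinoma markers on the array, 14 were tested, 10 were lower and 1 was higher in p16 samples. Their summed level was 117 to 122 in p16 and 156 to 158 in mock samples, with KRT7 at 13.94 in p16 and 14.05 in mock samples. CEACAM5, CEACAM6, AGR2 and CFTR lay under 4 in every p16 sample, against CFTR alone of the list in mock samples. The labels call both groups Capan-1, and whether both derive from the same cells was not tested. A difference between p16 and mock samples is therefore one between the samples so labelled, and cannot be told apart from a difference of the cells themselves. These marker differences accompany every member described here, and their part in the members' levels was not tested.

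Most MAGEA genes were well above the array's floor in p16 samples and at the floor in mock samples. A log2 level of 4 is taken as the floor, and a fold against a group wholly under it is a lower bound. MAGEA6 read 12.61, 13.33 and 13.28 in p16 samples V1 to V3, against 2.35, 2.36 and 2.34 in mock samples. MAGEA12 read 12.57, 13.16 and 13.18 in p16 samples, against 2.10, 2.11 and 2.10 in mock samples. All p16 values of both genes lay far above all mock values, at least 539-fold for MAGEA6 and at least 502-fold for MAGEA12. In RNA pooled over many cells, fewer cells with a transcript and less of it per cell cannot be told apart. The MAGEA3 and MAGEA6 proteins bind the ligase TRIM28, and MAGEA12 is a close relative of both.

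MAGEA10 read 11.32, 10.79 and 10.83 in p16 samples, against 2.03, 2.04 and 2.02 in mock samples, a difference of at least 126-fold. MAGEA4, whose protein binds the ligase RAD18 and which is a target of T cell therapies, read 11.68, 10.78 and 10.79 in p16 samples, against 2.61, 2.61 and 2.60 in mock samples, at least 136-fold. MAGEA11, a coregulator of the androgen receptor, read 7.38, 7.15 and 7.68 in p16 samples, against 2.48, 2.49 and 2.47 in mock samples, at least 10.6-fold. The groups did not overlap for any of these 5 genes. Spreads near 0.01 in mock samples are those of values at the floor and say little of the variation of an expressed gene.

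**Figure D1:**
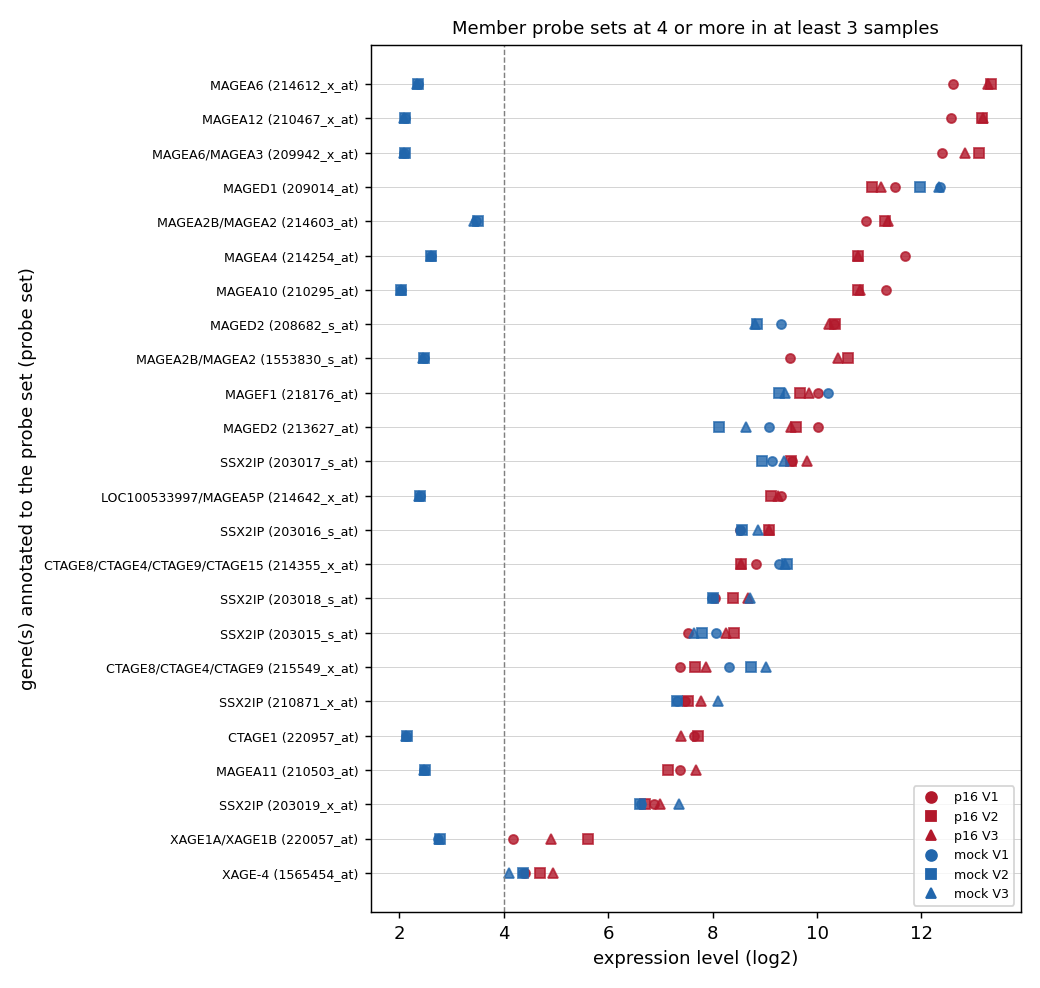
Log2 level (horizontal axis) of the 24 member probe sets at 4 or more in at least 3 samples, in 3 p16 samples (red) and 3 mock samples (blue), with 1 symbol per V number and a dashed line at 4. The MAGEA probe sets lie between 7.15 and 13.33 in p16 samples and between 2.02 and 3.50 in mock samples, while MAGED1, MAGED2, MAGEF1 and SSX2IP lie well above 4 in both groups.

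Part of the family can be read only through shared probe sets. Of the 76 probe sets, 26 are annotated to several genes, and 33 of the 70 members have no probe set of their own. A probe set annotated to MAGEA6 and MAGEA3 together read 12.39, 13.11 and 12.83 in p16 samples, against 2.10, 2.10 and 2.09 in mock samples, at least 439-fold. The signal of MAGEA3 cannot be separated from that of MAGEA6 there. The suffix _x_at marks probes that may bind related transcripts, and it stands on the probe sets of MAGEA6 and MAGEA12 as well, so the high levels of near-identical MAGEA genes are uncertain as to which gene gave them.

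MAGEA2 and MAGEA2B, near-identical copies, share both of their probe sets. The brighter read 10.94, 11.31 and 11.36 in p16 samples, against 3.47, 3.50 and 3.43 in mock samples, at least 147-fold. The dimmer read 9.48, 10.60 and 10.41 in p16 samples, against 2.46, 2.47 and 2.45 in mock samples, at least 71.6-fold. Both put every p16 sample above every mock sample.

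MAGEA5P, annotated together with LOC100533997, gave different readings on its probe sets. One, an _x_at design, read 9.30, 9.12 and 9.26 in p16 samples, against 2.40, 2.40 and 2.38 in mock samples, at least 37.5-fold. The other read 2.43, 2.39 and 2.40 in p16 samples, against 2.34, 2.38 and 2.34 in mock samples, under 4 everywhere. The high reading of MAGEA5P therefore rests on 1 of its probe sets.

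Sample V1 of the p16 group differed from V2 and V3 in opposite directions for different MAGEA genes. Its MAGEA4 level exceeded the mean of V2 and V3 by 0.89 and its MAGEA10 level by 0.51, while MAGEA6 fell short by a difference of -0.70, MAGEA12 by -0.59 and the MAGEA6 and MAGEA3 probe set by -0.58. The dimmer MAGEA2 and MAGEA2B probe set differed most, by -1.02, and the brighter by -0.39. MAGEA11 differed by -0.03. The same quantity ran from -1.72 (5th percentile) to 1.38 (95th percentile) over the 22286 probe sets at 4 or more in every p16 sample, so these values lie inside the ordinary range for V1.

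Not every MAGEA gene was high. Of 13 MAGEA genes, 9 had a probe set that passed the filter and 4 (MAGEA1, MAGEA8, MAGEA9 and MAGEA9B) lay under 4 in all 6 samples. MAGEA1, the first MAGE antigen described, read 2.49, 3.38 and 2.56 in p16 samples, against 2.00, 2.00 and 1.99 in mock samples. MAGEA8 read 2.57, 2.54 and 2.29 in p16 samples, against 2.22, 2.23 and 2.21 in mock samples. The probe set shared by MAGEA9 and MAGEA9B read 2.96, 2.38 and 2.45 in p16 samples, against 2.36, 2.36 and 2.34 in mock samples. Every p16 value of these 4 genes lay above every mock value, and all remained at the floor, where such an order carries little. Over all 28103 probe sets under 4 in every sample, 80.2% also put every p16 sample above every mock sample, with a median difference of 0.04, the same as for the 52 member probe sets under 4. The differences of these 4 genes were larger than that median, 0.82 for MAGEA1, 0.25 for MAGEA8 and 0.24 for MAGEA9 and MAGEA9B, and were not tested.

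The MAGEB and MAGEC branches were at the floor. The 6 MAGEB genes had 7 probe sets, none above 3.24 in any sample, and the 3 MAGEC genes had 4, none above 2.62. Among the tested MAGE type I probe sets, all 9 of them MAGEA, p16 values ran from 7.15 to 13.33 and mock values from 2.02 to 3.50.

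Promoters of MAGEA genes with high and with floor readings are shown side by side because the branch split between them in p16 samples. The windows run from 250 bases before to 50 bases after the start in the RefSeq table of assembly GRCh38.p14, which held 58 of the 70 members, and are printed 5′ to 3′ on the strand of the gene. The first 5 genes lay on probe sets high in p16 samples, MAGEA3 and MAGEA2B on shared ones only, and the last pair on probe sets under 4 in every sample, and capitals mark GGATGTGA, a run of letters chosen after the windows were seen.
MAGEA3, chrX:152698544-152698843, plus strand: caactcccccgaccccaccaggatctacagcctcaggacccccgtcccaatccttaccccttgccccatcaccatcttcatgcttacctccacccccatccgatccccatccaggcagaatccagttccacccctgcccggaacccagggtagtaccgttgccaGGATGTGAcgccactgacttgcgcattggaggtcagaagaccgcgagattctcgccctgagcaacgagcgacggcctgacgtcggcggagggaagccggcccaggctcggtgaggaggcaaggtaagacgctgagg
MAGEA2B, chrX:152714378-152714677, plus strand: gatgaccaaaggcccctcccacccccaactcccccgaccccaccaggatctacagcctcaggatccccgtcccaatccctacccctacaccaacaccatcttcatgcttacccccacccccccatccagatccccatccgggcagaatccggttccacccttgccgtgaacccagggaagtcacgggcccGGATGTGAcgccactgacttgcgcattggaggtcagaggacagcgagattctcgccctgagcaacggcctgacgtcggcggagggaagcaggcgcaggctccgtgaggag
MAGEA12, chrX:152733507-152733806, plus strand: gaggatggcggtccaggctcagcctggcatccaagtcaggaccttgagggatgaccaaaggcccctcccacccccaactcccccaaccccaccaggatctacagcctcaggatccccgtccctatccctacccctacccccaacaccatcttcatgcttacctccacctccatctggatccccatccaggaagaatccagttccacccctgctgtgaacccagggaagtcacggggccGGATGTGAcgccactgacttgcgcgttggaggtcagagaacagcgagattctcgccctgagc
MAGEA4, chrX:151912224-151912523, plus strand: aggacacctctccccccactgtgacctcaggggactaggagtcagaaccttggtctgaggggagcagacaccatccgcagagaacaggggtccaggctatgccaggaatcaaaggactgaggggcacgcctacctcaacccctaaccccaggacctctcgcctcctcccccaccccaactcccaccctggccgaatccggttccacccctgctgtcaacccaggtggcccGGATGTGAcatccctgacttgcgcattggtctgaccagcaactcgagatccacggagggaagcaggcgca
MAGEA11, chrX:149711810-149712109, plus strand: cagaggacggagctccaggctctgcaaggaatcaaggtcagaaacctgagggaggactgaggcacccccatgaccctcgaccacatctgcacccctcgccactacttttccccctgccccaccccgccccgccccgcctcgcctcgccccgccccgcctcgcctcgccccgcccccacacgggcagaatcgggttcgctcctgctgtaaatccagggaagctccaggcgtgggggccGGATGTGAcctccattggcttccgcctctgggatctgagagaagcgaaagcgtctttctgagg
MAGEA8, chrX:149880933-149881232, plus strand: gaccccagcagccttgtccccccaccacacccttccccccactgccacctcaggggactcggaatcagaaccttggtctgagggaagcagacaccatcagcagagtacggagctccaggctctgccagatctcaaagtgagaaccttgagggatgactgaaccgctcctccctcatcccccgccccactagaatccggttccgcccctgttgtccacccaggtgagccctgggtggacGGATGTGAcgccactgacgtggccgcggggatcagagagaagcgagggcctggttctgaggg
MAGEA9, chrX:149781680-149781979, plus strand: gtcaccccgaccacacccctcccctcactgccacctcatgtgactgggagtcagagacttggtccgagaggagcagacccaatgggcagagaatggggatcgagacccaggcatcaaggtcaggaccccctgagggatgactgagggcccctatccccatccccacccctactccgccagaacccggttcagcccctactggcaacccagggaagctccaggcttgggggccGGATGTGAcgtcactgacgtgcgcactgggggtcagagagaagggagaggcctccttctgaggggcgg
The windows of MAGEA3 and MAGEA6 are identical over 300 bases, as are those of MAGEA9 and MAGEA9B.

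GGATGTGA was in all 16 MAGEA windows (10 genes), searched on both strands, against 1.16% of the 35116 windows of the table. It stood in the 13 windows of MAGEA genes read as high in p16 samples, on their own or shared probe sets, and in the 3 windows of MAGEA genes under 4, so its letters did not separate them. The MAGEA3 and MAGEA2B windows were 76.5% identical and the MAGEA9 and MAGEA8 windows 69.6%, so the windows are related copies and not independent cases. CCGGAA, only one form of the letters ETS factors bind (other forms keep GGAT, as GGATGTGA does, and were not counted), was in the MAGEA3 and MAGEA6 windows alone of the MAGEA genes, at position -113 from the start, against 17.2% of all windows. CACGTG, an E-box, was in 7.26% of all windows, in all 12 GAGE windows and in 0 of the 16 MAGEA windows. The GAGE windows are near-identical copies and likewise not independent cases. The median number of CG pairs was 15 (9 to 21) in the 13 MAGEA windows high in p16 samples, 10 (10 to 12) in the 3 under 4 and 14 over all windows. These ranges overlap, MAGEA4 and others gave several windows, and the windows of MAGEA9 and MAGEA9B are identical, so nothing is read from the medians. MAGEA1, MAGEA5P and MAGEA10 had no window. These matches describe the letters of the reference, and methylation was not measured here.

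Outside MAGE, the X-linked cancer-testis families other than XAGE stayed at the floor. The 13 GAGE genes had 5 probe sets, none above 2.51. The 3 PAGE genes had none above 3.38, and the 3 CTAG genes, which include CTAG1B (NY-ESO-1), had 5 probe sets, none above 3.02. The 8 SSX genes, whose SSX1 and SSX2 are fused to SS18 in synovial sarcoma, had 14 probe sets, none above 3.71.

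XAGE1A and XAGE1B share a probe set that read 4.18, 5.62 and 4.91 in p16 samples, against 2.74, 2.77 and 2.77 in mock samples. All p16 values lay just above 4 and all mock values below it, at least 1.87-fold. XAGE-4 read 4.40, 4.69 and 4.93 in p16 samples, against 4.37, 4.37 and 4.09 in mock samples, a gap of 0.40 between means that was not called. Just outside the filter, XAGE3 averaged 3.28 in p16 and 2.65 in mock samples, and SSX1 reached 3.71 in p16 and 3.42 in mock samples.

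**Figure D2:**
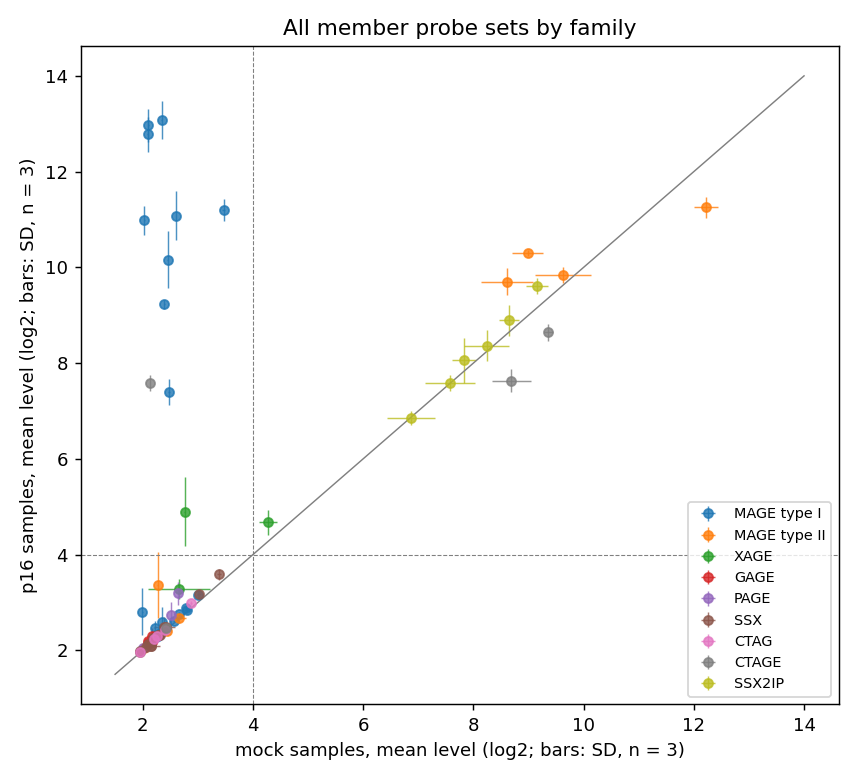
Mean log2 level of all 76 member probe sets in mock samples (horizontal axis) and p16 samples (vertical axis), coloured by family, with bars of 1 SD (n = 3), dashed lines at 4 and the line of equal levels. The MAGE type I points split into a column of 9 at the mock floor with p16 means of 7.40 to 13.08 and a cluster under 4 on both axes, where all GAGE, PAGE, SSX and CTAG points also lie.

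CTAGE1, an autosomal gene of chromosome 18, was the other member silent in mock samples and well above 4 in p16 samples. It read 7.63, 7.71 and 7.40 in p16 samples, against 2.13, 2.14 and 2.13 in mock samples, at least 11.98-fold and without overlap. Its relatives CTAGE4, CTAGE8, CTAGE9 and CTAGE15 ran the other way on shared probe sets. One read 8.84, 8.54 and 8.55 in p16 samples, against 9.27, 9.43 and 9.40 in mock samples, a difference of -0.72. The other, which leaves out CTAGE15, read 7.38, 7.66 and 7.87 in p16 samples, against 8.31, 8.74 and 9.02 in mock samples, a difference of -1.05. All p16 values of both were below all mock values. Both are _x_at designs, and both calls were lost without p16 V2, mock V2 or mock V3. The first was also lost without p16 V3 and the other without p16 V1.

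The type II genes MAGED1, MAGED2 and MAGEF1 were well above the floor in both groups. MAGED2, which is mutated in a transient antenatal Bartter syndrome, read 10.33, 10.35 and 10.22 in p16 samples, against 9.31, 8.84 and 8.81 in mock samples, 2.48-fold higher. Its second probe set read 10.03, 9.59 and 9.49 in p16 samples, against 9.07, 8.12 and 8.64 in mock samples, 2.14-fold higher. The call of this second probe set was lost when any sample except mock V1 was left out. Both probe sets put all p16 samples above all mock samples. MAGED1, which binds the p75 neurotrophin receptor, read 11.49, 11.06 and 11.22 in p16 samples, against 12.36, 11.97 and 12.34 in mock samples, 1.96-fold lower without overlap. Its call was lost without p16 V2, p16 V3 or mock V3.

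MAGEF1, a partner of the NSMCE1 ligase, read 10.01, 9.67 and 9.84 in p16 samples, against 10.20, 9.27 and 9.39 in mock samples, and the groups overlapped. The other MAGED genes (MAGED4 and MAGED4B), the MAGEE genes and MAGEL2, which is deleted in Prader-Willi syndrome, were under 4 throughout. MAGEH1 came nearest to the filter, at 3.57, 3.92 and 2.59 in p16 samples, against 2.27, 2.27 and 2.26 in mock samples. SSX2IP, a centrosomal and junctional protein, had 6 probe sets with differences of -0.01 to 0.46, none called. The brightest read 9.51, 9.51 and 9.82 in p16 samples, against 9.14, 8.95 and 9.36 in mock samples.

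Of 11 members with their own tested probe set, 7 were called higher and 1 lower in p16 samples, and for 10 the groups did not overlap, as for 56.4% of all tested genes. Of 24 tested member probe sets 13 were called higher and 3 lower. The background was 19.5% higher and 22.5% lower over genes, and 17.5% and 19.7% over probe sets. The families were proposed for their rises here, and 6 of the 11 passed the filter through the p16 samples alone, so nothing is read from these counts. In mock samples alone, 13 of the 76 member probe sets (17.1%) were at 4 or more in every mock sample, against 41.5% of all probe sets. Levels of at least 4 in all p16 samples and under 4 in all mock samples were found for 11 of 76 member probe sets, against 1.54% of all 54613, and 4 of the 126 genes under 4 in all mock and at 8 or more in all p16 samples were members, MAGEA4, MAGEA6, MAGEA10 and MAGEA12. These counts share the contrast that picked the families.

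The genes around the MAGEA block of distal Xq were not chosen by the rule and could be tested. Of 48 array genes lying between the outermost MAGEA members or among the 10 nearest array genes on either side, 19 had their own tested probe set. In p16 samples 8 of the 19 were higher, 1 was lower and 10 were not called, against 47.3% higher and 5.41% lower over the 351 tested X-linked genes outside the families (limma, adjusted p), so their share was near that of the chromosome. With V numbers as a replicate block, 15 were higher and 1 lower, FMR1, MTM1, MTMR1, CD99L2, HMGB3, CETN2 and CCNQ being added, while 79.8% of the X-linked genes were called in either direction. FMR1NB, itself a cancer-testis gene, read 7.27, 8.38 and 8.16 in p16 samples, against 2.89, 2.91 and 2.87 in mock samples, with a limma adjusted p of 0.000133 and a rise of at least 15.3-fold. PASD1, also a cancer-testis gene, averaged 5.21 in p16 and 2.57 in mock samples, a rise of at least 2.31-fold (adjusted p = 0.000737 by limma). FMR1NB and PASD1 passed the filter through p16 samples alone, which favours a higher call. ZNF185, an actin-associated LIM protein, averaged 11.06 in p16 and 7.47 in mock samples (12.03-fold, limma, adjusted p = 0.000216), and NSDHL, an enzyme of cholesterol synthesis, 11.19 in p16 and 8.57 in mock samples (6.17-fold, limma, adjusted p = 0.000825).

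The same stretch held shared probe sets that moved in either direction and genes that stayed silent. A probe set shared by CSAG2 and CSAG3, which lie among the MAGEA genes, read 8.78, 8.98 and 9.35 in p16 samples, against 2.22, 2.23 and 2.20 in mock samples, a rise of at least 32.8-fold (adjusted p = 1.00e-05 by limma). A probe set shared by GABRE, a GABA receptor subunit gene, and the microRNA genes MIR224 and MIR452, which lie within it, read 2.44, 2.42 and 2.43 in p16 samples, against 7.29, 6.99 and 7.11 in mock samples, at least 8.75-fold lower (limma, adjusted p = 1.53e-05). The CSAG2 and CSAG3 probe set passed the filter through p16 samples alone and the GABRE probe set through mock samples alone. Each such entry favours the call that was made. GABRA3, GABRQ, PRRG3 and GPR50 were among the 19 genes of the 48 under 4 in every sample. TMEM185A was called lower, a call lost without filtering and when p16 V1, p16 V2, p16 V3 or mock V3 was left out.

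**Figure D3:**
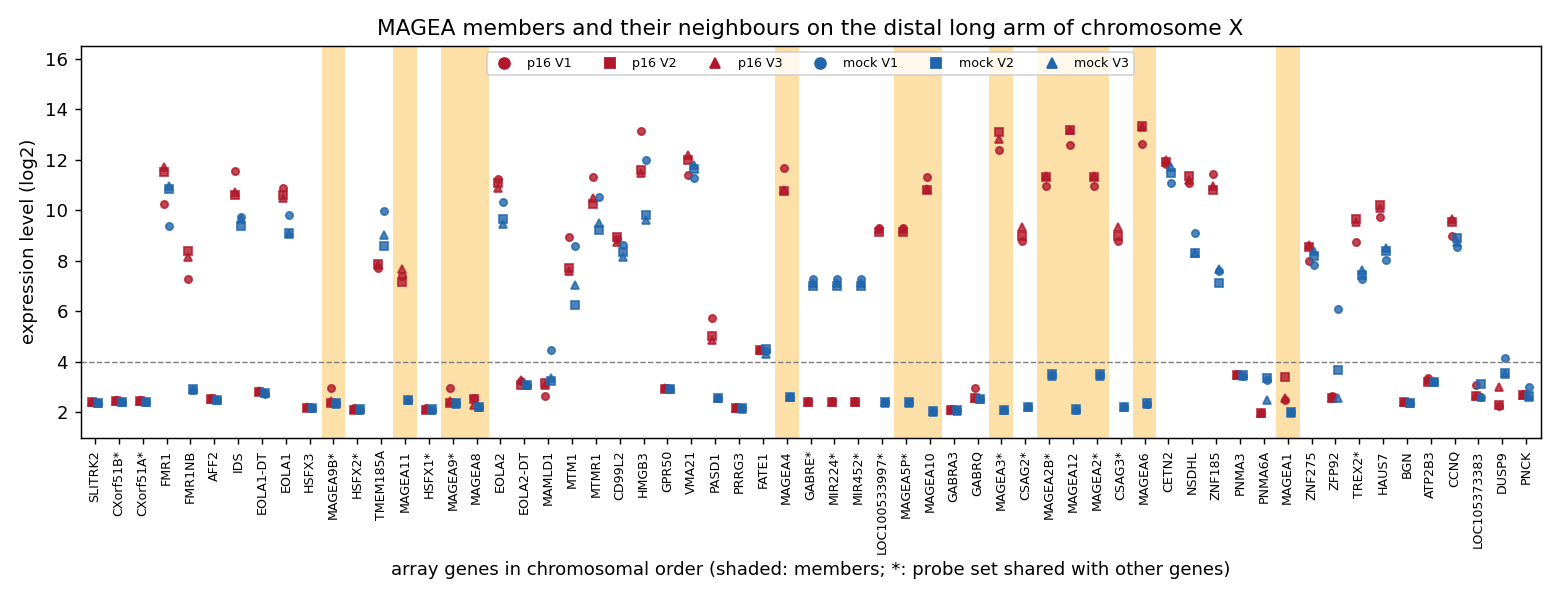
Log2 level of array genes around the MAGEA block of chromosome X in chromosomal order (horizontal axis, not to distance), 3 p16 samples in red and 3 mock samples in blue, members shaded, shared probe sets starred, dashed line at 4. High p16 values over mock floor values recur at MAGEA4, MAGEA10, MAGEA12 and MAGEA6 and their close neighbours CSAG2 and CSAG3, while MAGEA8, MAGEA9 and MAGEA1 stay under 4 and the shared GABRE probe set is high in mock samples alone.

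Chromosome X as a whole leaned towards p16 samples. Of 351 tested X-linked genes outside the families, 166 (47.3%) were called higher and 19 (5.41%) lower. Across the 22 autosomes the share called higher ran from 3.36% to 48.6%, the highest on chromosome 4, so X was near the top of that range. The members' rises thus stand on a chromosome where other genes were also higher, and the part this plays was not tested.

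**Figure D4:**
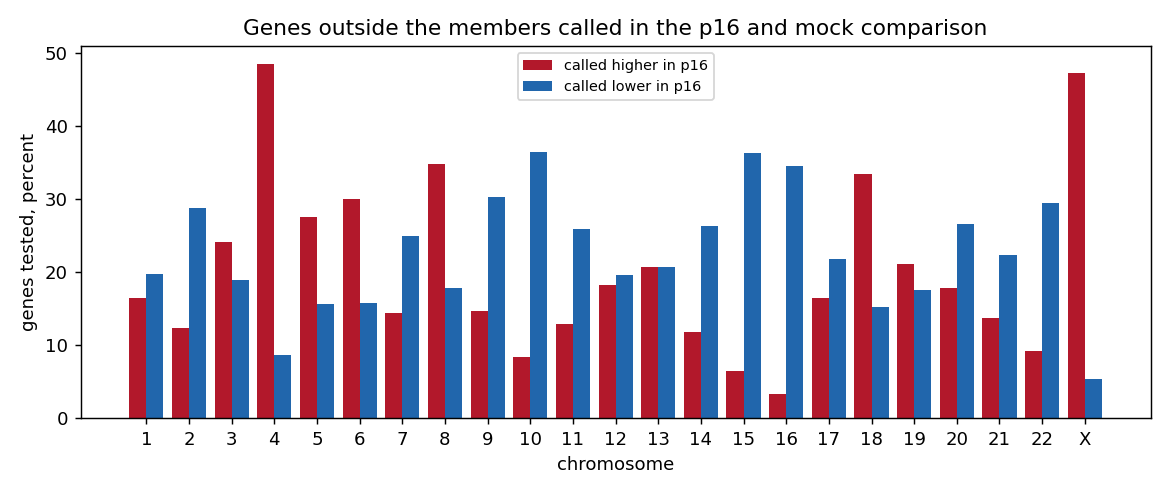
Percent of tested genes outside the families called by limma in each chromosome, higher in p16 samples (red) and lower in p16 samples (blue). Chromosome X reads 47.3% higher and 5.41% lower, next to chromosome 4 with 48.6% higher.

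Among other cancer-testis genes, outside the named families, most were at the floor. Of 14 further X-linked ones on the array, 10 were under 4 in every sample, 4 were tested and 3 were called higher, IL13RA2, FMR1NB and PASD1, against 47.3% higher over X-linked genes outside the families. All 3 lay under 4 in every mock sample and passed the filter through p16 samples alone. That favours a higher call, and nothing is read from their count. IL13RA2, a decoy receptor for interleukin 13, read 11.78, 11.42 and 11.61 in p16 samples, against 2.05, 2.06 and 2.05 in mock samples, a rise of at least 194.0-fold (adjusted p = 3.71e-06 by limma). Of 21 autosomal ones, 14 were under 4 in every sample and 6 were tested, with 1 higher and 3 lower, against 19.5% and 22.5% over all genes. ZNF165 averaged 9.06 in p16 and 6.74 in mock samples, 4.99-fold higher (limma, adjusted p = 0.00927). DDX43, an RNA helicase, averaged 3.06 in p16 and 9.61 in mock samples, at least 48.7-fold lower (limma, adjusted p = 0.000200). TDRD1 and STK31, both active in germ cells, were also lower, at least 2.87-fold and 2.12-fold, and STK31 lost its call with values under 4 raised to 4. DDX43, TDRD1 and STK31 lay under 4 in every p16 sample and passed the filter through mock samples alone. Nothing is read from the count of lower calls either. PRAME and CTCFL, the germ cell relative of CTCF, were under 4 in every sample, and all 11 testis germ cell markers were too, with a sum of 27.7 to 28.1 in p16 and 27.3 to 27.5 in mock samples.

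Genes of MAGE partner proteins were called in both directions, at shares near those of all genes. Of 22 listed ligases, ligase partners and targets on the array, 19 were tested, 4 were higher, 5 were lower and 10 were not called, against 19.5% higher and 22.5% lower over all genes tested. TRIM28, the ligase of MAGEA3 and MAGEA6, averaged 12.13 ± 0.45 in p16 and 11.99 ± 0.49 in mock samples (SD, n = 3 each, limma adjusted p = 0.808). PRKAA1, the AMPK subunit that this ligase degrades, averaged 10.21 ± 0.18 in p16 and 10.48 ± 0.15 in mock samples (SD, n = 3 each, limma adjusted p = 0.286). TRIM27, the ligase of MAGEL2, was 4.41-fold higher (limma, adjusted p = 0.000353). PRKAA2, the other AMPK catalytic subunit gene, was at least 18.9-fold higher, and UNC5A and MSX2, both reported to bind MAGED1, were lower, UNC5A at least 22.3-fold and MSX2 at least 33.7-fold. PRKAA2 passed the filter through p16 samples alone, and UNC5A and MSX2 through mock samples alone.

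**Figure D5:**
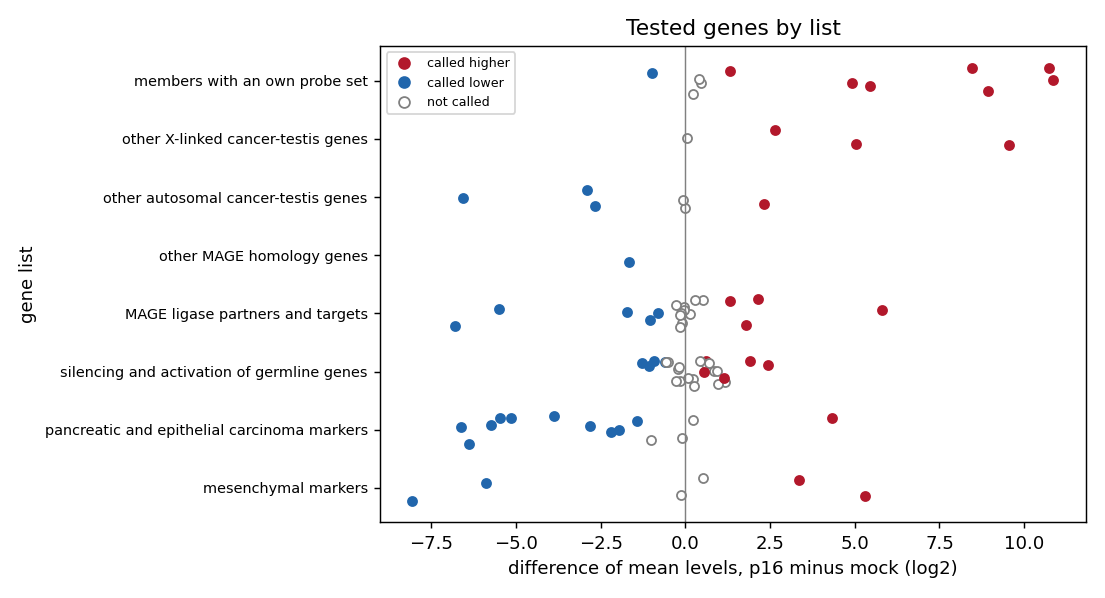
Difference of mean log2 levels, p16 minus mock (horizontal axis), of each tested gene in the members with an own probe set and in 7 lists of other genes, with red for called higher, blue for called lower and open circles for not called by limma. Members reach 10.87, the largest difference drawn. DDX43, UNC5A and MSX2 lie below -5, as do the carcinoma markers CEACAM6, ELF3, SOX9, AGR2 and MUC1 and the mesenchymal markers VIM and CDH2. The lowest point is CDH2 at -8.05.

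Genes of silencing and activation were listed because methylation is known to hold MAGEA promoters off. Of 25 tested, 5 were higher, 4 were lower and 16 were not called, near the 19.5% higher and 22.5% lower of all genes. The counts were 12 higher and 6 lower when V numbers entered as a replicate block, a fit that called 67.9% of all genes in either direction. HDAC2, a histone deacetylase, averaged 12.57 in p16 and 10.65 in mock samples (3.79-fold higher, limma, adjusted p = 0.00419). KDM1A, a histone demethylase, averaged 9.93 in p16 and 11.22 in mock samples (2.45-fold lower, limma, adjusted p = 0.00563). DNMT1, the maintenance methyltransferase, averaged 12.62 in p16 and 12.01 in mock samples (limma, adjusted p = 0.0448), a call lost when any sample except p16 V1 was left out, with a filter at 5 and after quantile normalization. ETS1 and ELK1, both ETS factors, were 5.43-fold and 2.19-fold higher, and the ETS1 call was lost without the filter and when any sample except mock V1 was left out, the ELK1 call without p16 V2 or p16 V3. NSMCE3, another gene with a MAGE homology domain, was 3.15-fold lower (limma, adjusted p = 0.0193), a call lost without the filter and without p16 V3, mock V2 or mock V3. In the replicate block fit DNMT1, ETS1, ELK1 and NSMCE3 kept their calls, as part of the 67.9% of genes it called.

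Markers of other cell types gave no common shift. Of the melanocyte markers 1 of 6 was tested, MITF, and of the trophoblast markers 1 of 6, PAPPA2, and neither was called, while all 6 leukocyte markers were under 4 in every sample. Of 6 tested mesenchymal markers, SPARC (at least 16.1-fold) and FN1 (10.3-fold) were higher in p16 samples. VIM (58.7-fold) and CDH2 (at least 168-fold) were lower. SPARC passed the filter through p16 samples alone and CDH2 through mock samples alone. Summed levels of the list were 51.0 to 53.4 in p16 and 55.3 to 58.7 in mock samples.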

How the data were processed

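RNA from 6 Capan-1 samples was measured on Affymetrix HG-U133 Plus 2.0 arrays. The authors deposited log2 levels made with GCRMA (version not given in the sources used here), per the submitters' processing notes. GCRMA piles silent probe sets up near a floor, so folds against it depend on it. Of 54675 probe sets, 62 controls were left out. Platform annotation gave 41091 probe sets 1 gene and 1801 several, and 11721 are unnamed here. Column medians were 3.11 to 3.18.

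A probe set was tested if it reached 4 in at least 3 samples, whatever the group (24406 probe sets, 11658 genes). p16 and mock samples were compared with limma 3.58.1 in R 4.3.3 (lmFit, eBayes, two-sided, no block), and p-values were Benjamini-Hochberg adjusted over all tested probe sets (threshold 0.05). A gene takes its brightest tested probe set annotated to it alone. A bound sets floor values to 4. Limma was checked on simulated data. Promoter letters were read with Python 3.11.15.

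The members and the 11 lists were chosen with earlier results of these data known. Beyond the members, the genes named are up to 4 called per list with the largest difference, or up to 2 with the smallest adjusted p where none was called, and CDKN2A, MTAP, TRIM28, PRKAA1, DNMT1, CTCFL, PRAME, GAPDH and ACTB. KRT7, KRT8, KRT18, KRT19, GATA6, MUC1, the CEACAM5, AGR2 and CFTR levels and the neighbours were named after their values were seen. GAPDH differed by 0.14 and ACTB by 0.15 (neither called). Deviations from the group means correlated between samples of the same V number (0.814, 0.751 and 0.669). The main fit, which gave every adjusted p printed here, ignores this pairing. A fit with V numbers as a replicate block is given only as an alternative. What a V number stands for is not labelled. Alternatives covered the filter, normalization, floor, variance model, block, probe set rule and each sample left out.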

Additional observations from a re-analysis of the deposited data

How the results depend on the processing

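With V numbers as a replicate block, limma called 7916 genes (67.9%), against 4895 (42.0%) without it. Members then gave 8 higher and 1 lower, listed genes outside them 25 higher (16 without the block), neighbours 15 higher (8) and other chromosome X genes 35 lower (19). Counting shared probe sets gave 11 members higher and 3 lower. Values under 4 raised to 4 took the tested members' median difference, which the filter itself favours, to 3.40, against 4.92. The neighbours called lower numbered 0 without the filter and 0 with the median over probe sets, as TMEM185A lost its limma call. Leaving out 1 sample gave 0 to 1 members lower, 12 to 17 listed genes higher, 17 to 25 listed lower, 6 to 11 neighbours higher, 0 to 1 neighbours lower and 12 to 21 chromosome X genes lower, with a members' median of 4.78 to 5.05. The cause of these changes was not tested. No result reversed its direction under these alternatives. Signal near the floor sets what can be seen of the 49 members under 4 in every sample.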
